A study of Mus musculus with 4 samples.

Results

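The TSPYL and NAP histone chaperones were followed in mouse dendritic cells given SAHA. The family was taken as 10 genes by name, namely Tspyl1 to Tspyl5, Nap1l1 to Nap1l4 and Set, and all 10 were measured among 18194 genes. They were covered by 21 of the 45101 probe sets of the array. Where a gene had several probe sets, the reading one was selected on its mean log2 value over the 4 arrays, the highest being taken, so the level of a gene is a description of that choice. The genes themselves were chosen by name with earlier results of these data known, and counts of members are therefore descriptions.

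The 2 SAHA arrays came from dendritic cells treated with SAHA (500 nm, as the labels write it) for 12 hours, and the 2 control arrays from dendritic cells given the diluent for the same time. All cells were grown from C57BL/6 bone marrow, drawn from at least 3 mice per experiment. Culture lasted 7 days in GM-CSF and IL-4 (10 ng/ml of either), and CD11c-positive cells were then selected to a stated purity of 95%. SAHA (vorinostat) is a hydroxamic acid that blocks histone deacetylases, and the series set out to describe its effect on the expression profile. Replicates are labelled biological, but nothing states that separate marrow pools were used, so the p-values reflect array-to-array spread, which may be technical.

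Histone chaperones bind free histones, keep them from clumping with DNA, and hand them on when nucleosomes are built or taken apart. The members share a fold named after nucleosome assembly protein 1. NAP1L1 and NAP1L4 are found in most tissues and carry H2A-H2B dimers, whereas NAP1L2 and NAP1L3 are best known from neurons. The TSPYL proteins are relatives of TSPY, a testis protein encoded on the Y chromosome. SET (TAF-I, or I2PP2A) also inhibits the phosphatase PP2A and shields histone tails from acetyltransferases.

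Tspyl4 and Tspyl1 carry the sequences shown here, because they lie next to each other on chromosome 10 and had the highest and the second highest log2 change among the TSPYL genes. The RefSeq promoter table (GRCm38.p6) matched 7 of the 10 members, with 8 promoters, and the members without an entry were Tspyl5, Nap1l2 and Nap1l4. The 250 bases before the annotated start of each gene are printed on the plus strand, with matches to TGACGTCA and TCTCGCG in capitals. The Tspyl4 stretch is chr10:34297171-34297420 and the Tspyl1 stretch is chr10:34281940-34282189.
Tspyl4: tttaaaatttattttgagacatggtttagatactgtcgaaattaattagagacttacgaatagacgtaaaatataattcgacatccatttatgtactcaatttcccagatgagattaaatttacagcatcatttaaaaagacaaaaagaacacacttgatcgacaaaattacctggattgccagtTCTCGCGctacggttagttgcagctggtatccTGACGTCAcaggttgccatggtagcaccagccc
Tspyl1: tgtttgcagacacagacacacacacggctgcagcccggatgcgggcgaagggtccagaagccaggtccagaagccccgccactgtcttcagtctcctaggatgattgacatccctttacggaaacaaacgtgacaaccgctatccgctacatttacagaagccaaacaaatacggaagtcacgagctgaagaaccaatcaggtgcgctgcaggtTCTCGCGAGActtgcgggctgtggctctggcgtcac

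Motifs were searched on both strands in the 250 bases before the start of each of 32851 RefSeq promoters, and they were chosen after the member promoters had been read. TGACGTCA, the cyclic AMP response element (CRE), stood 33 to 26 bases before the start of Tspyl4 and in none of the 7 other member promoters. It occurred in 1.55% of all promoters. The heptamer TCTCGCG stood 65 to 59 bases before the start of Tspyl4. In Tspyl1 it matched on both strands in overlapping positions, from 36 to 27 bases before the start. No other member promoter held the heptamer, and 2.1% of all promoters did. CCAAT, the NF-Y motif, was in the promoters of Tspyl1, Tspyl2, Nap1l1 and both Set starts, against 33.8% of all promoters. The GC box GGGCGG was in Tspyl2 and both Set starts (32.7% of all promoters) and the E box CACGTG in 1 Set start (6.02%). The TATA box TATAAA was in none of the member promoters and in 12.4% of all. The stretch before Tspyl4 held 9 CpG dinucleotides, that before Tspyl1 16, and the median promoter 6.0. These matches describe letters in a window and do not show that a factor binds there.

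**Figure D1:**
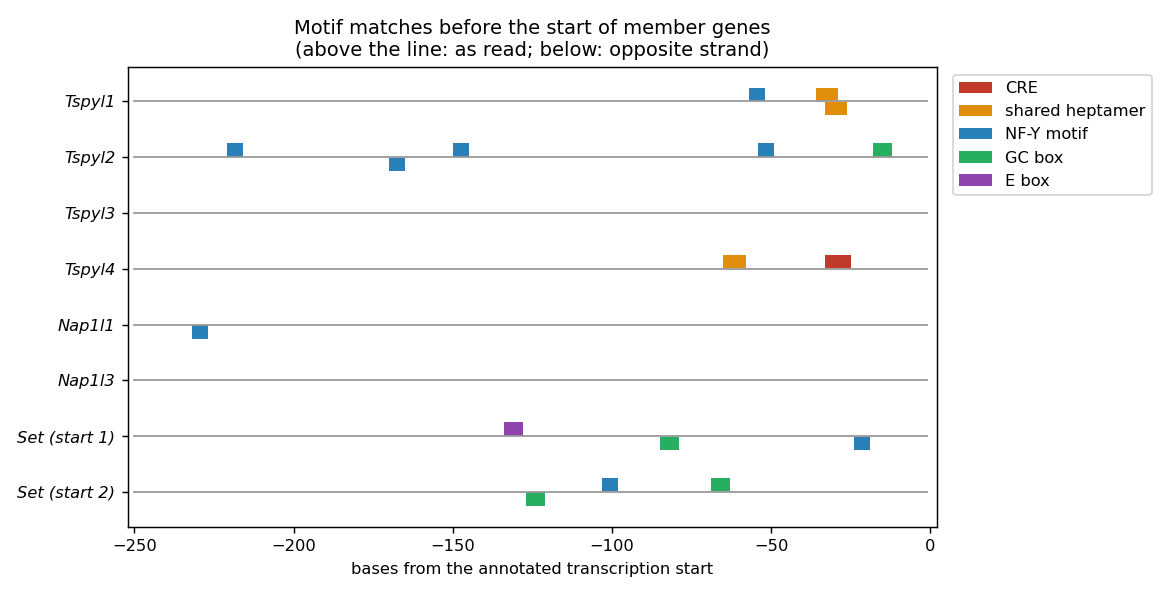
Motif matches in the 250 bases before the annotated start of the member genes with a RefSeq promoter; the horizontal axis is the distance from the start in bases and each block is 1 match, above the line as read and below it on the opposite strand. The heptamer is seen before Tspyl1 and Tspyl4 and the CRE motif before Tspyl4.

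Tspyl4 was the member that moved most. Its log2 values were 9.26 and 8.71 in SAHA-treated cells, against 6.83 and 6.68 in control cells. Every SAHA array lay above every control array, by 1.88 to 2.58 log2 units, while arrays of a group differed by 0.55 under SAHA and 0.15 in control. The mean was 8.98 ± 0.39 with SAHA and 6.75 ± 0.11 in control (SD, n = 2 each), a 4.69-fold rise. The log2 change was 2.23 ± 0.21 (SE, limma over all genes, Benjamini-Hochberg adjusted p = 0.0127), with a 95% interval of 1.72 to 2.74. It ranked 18 among 18194 genes ordered from the largest rise.

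The call for Tspyl4 depended on SAHA replicate 1, since without it the log2 change was 1.96 with an adjusted p of 0.0538 in limma. It was also lost with values under the 20th percentile raised to it (limma, adjusted p = 0.174), with the change still 2.23. With that floor 0 of all 18194 genes passed, so a call lost to it, here or below, is not particular to the gene. A further probe set of Tspyl4 had log2 values of 3.62 and 3.76 with SAHA and 3.76 and 3.89 in control. All 4 of these lay under the 25th percentile of their array, so that probe set gave no usable change, and averaging it with the first brought the log2 change of Tspyl4 to 1.05 (limma, adjusted p = 0.0287).

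Tspyl1, whose human counterpart is mutated in a syndrome of sudden infant death with dysgenesis of the testes, had log2 values of 9.66 and 9.74 in SAHA-treated cells, against 8.75 and 9.18 in control cells. The groups did not overlap, and the distance between single SAHA and control arrays was 0.48 to 0.98. Its log2 change was 0.73 ± 0.18 (SE), or 1.66-fold, and did not pass the threshold (limma, adjusted p = 0.108). A further probe set had 9.38 and 8.81 with SAHA and 8.15 and 8.43 in control, a change of 0.80 that also missed it (limma over all probe sets, adjusted p = 0.204). Both probe sets thus lay higher with SAHA by similar amounts, and no array of one group reached the other.

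The protein-coding genes on either side of the Tspyl1 and Tspyl4 pair in the RefSeq table are Dse and Nt5dc1, which were looked at after the members' values were seen. Dse, an epimerase of dermatan sulfate, had a log2 change of -0.01 (limma, adjusted p = 0.995, 95% interval -0.69 to 0.68). Nt5dc1, a protein with a 5'-nucleotidase domain, had a change of 0.30 (limma, adjusted p = 0.388, 95% interval -0.09 to 0.68).

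Tspyl3 had log2 values of 7.24 and 7.31 in SAHA-treated cells, against 6.63 and 6.56 in control cells. The arrays of each group lay within 0.07 of each other and the groups did not overlap. The change was 0.68 ± 0.15 log2 units (SE), or 1.6-fold, and missed the threshold (limma, adjusted p = 0.0812). The name of that probe set marks it as one that may match more than 1 transcript, and the second probe set of Tspyl3 had a smaller change of 0.47 (limma over all probe sets, adjusted p = 0.344), with 7.18 and 6.84 under SAHA against 6.67 and 6.42 in control.

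Tspyl2, known as CDA1 and as a partner of the scaffold protein CASK, had log2 values of 8.49 and 8.16 in SAHA-treated cells and 8.26 and 7.67 in control cells. The groups overlapped, and the change of 0.36 was smaller than the 0.59 between the control arrays (limma, adjusted p = 0.473, 95% interval -0.21 to 0.92). Tspyl5, which binds the deubiquitinase USP7 in human cells, was among the dimmest readings, at 4.10 and 4.06 with SAHA and 4.23 and 4.15 in control. Its change was -0.11 (limma, adjusted p = 0.623), and the 25th percentile of the arrays lay at 3.94 to 4.04.

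Nap1l2, an X-linked member known for its part in neural progenitors, also passed the threshold, from the low end of the scale. Its log2 values were 5.03 and 4.73 in SAHA-treated cells, against 4.13 and 3.86 in control cells. Control replicate 2 was below the 25th percentile of that array, and with that percentile in its place the estimated rise was 1.73-fold. The measured log2 change was 0.89 ± 0.16 (SE, limma, adjusted p = 0.0492), with a 95% interval of 0.51 to 1.27. That call sat at the threshold: Nap1l2 did not pass in the fit over all 45037 probe sets (adjusted p = 0.0856), and limma gave 0.232 without SAHA replicate 1, 0.0817 without SAHA replicate 2 and 0.0930 without control replicate 2. An offset of 32 on the linear scale brought the log2 change of Nap1l2 to 0.36 (limma, adjusted p = 0.054).

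Neither of the widely expressed NAP1L genes passed the threshold. Nap1l1 had log2 values of 11.53 and 11.24 in SAHA-treated cells and 11.75 and 11.40 in control cells, and the groups overlapped. Its change was -0.19 (limma, adjusted p = 0.604, 95% interval -0.60 to 0.22). Its 6 other probe sets had changes of -0.33 to 0.17, and each of these overlapped between the groups. The Nap1l1 interval leaves out a rise as large as the lowest bound for Tspyl4, 1.72.

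Nap1l4 had log2 values of 10.34 and 10.19 with SAHA and 10.41 and 10.39 in control. The SAHA arrays were the lower ones, by 0.05 to 0.22, and the change was -0.14 (limma, adjusted p = 0.622, 95% interval -0.45 to 0.18). Nap1l3, X-linked like Nap1l2, had 3.46 and 3.72 with SAHA and 3.64 and 3.66 in control, all 4 under the 25th percentile of their array. No change could be read from values at that level.

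Set had log2 values of 11.04 and 11.03 in SAHA-treated cells, against 11.53 and 11.09 in control cells. The SAHA arrays were lower, by 0.04 to 0.50, but the control arrays differed by 0.45 from each other. The change was -0.27 (limma, adjusted p = 0.454, 95% interval -0.68 to 0.14). Its other probe sets had changes of -0.44 and -0.18 (limma over all probe sets, adjusted p = 0.33 and 0.721), so all 3 lay below 0 without passing. For the last the groups overlapped, with 9.81 and 9.72 under SAHA against 10.21 and 9.68 in control. Without control replicate 1 the change of Set was -0.05.

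**Figure D2:**
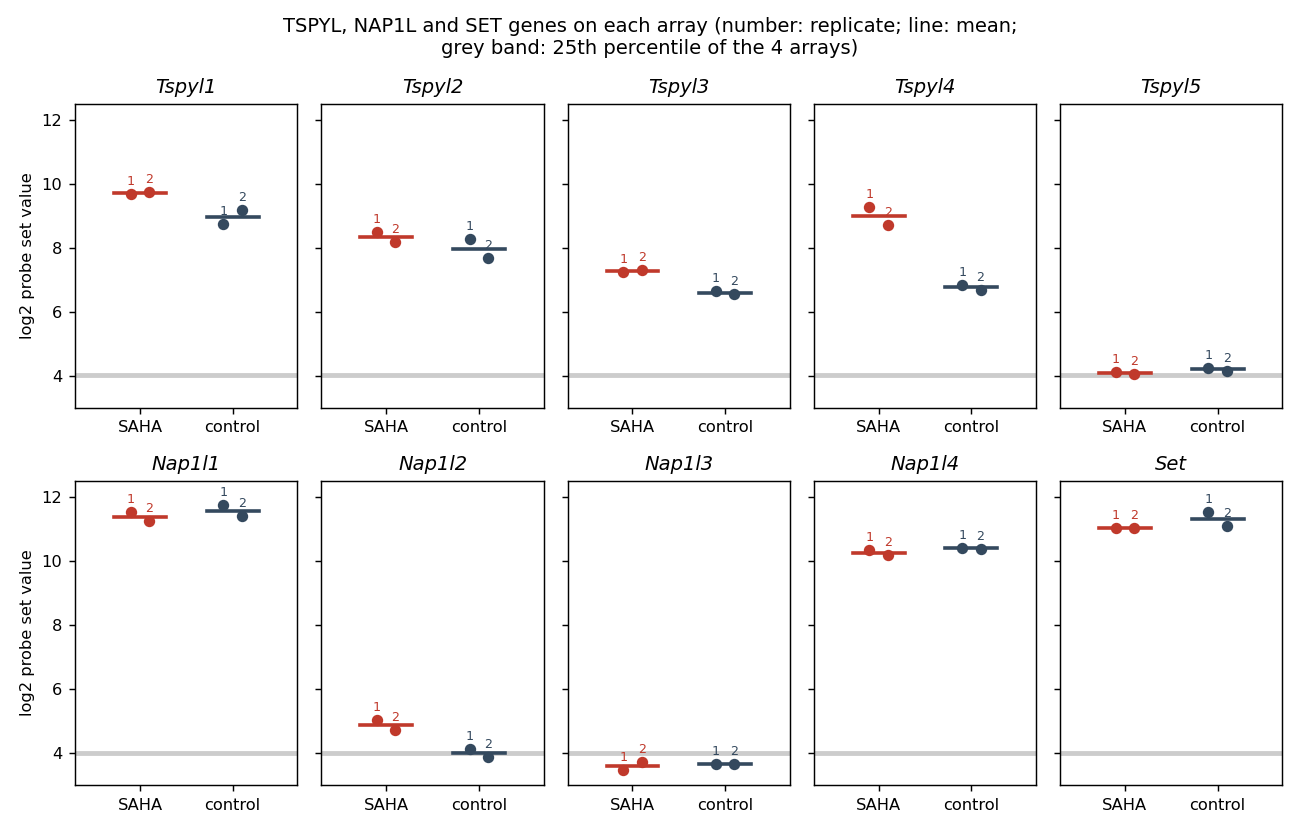
Log2 probe set value (vertical axis) of each member on each of the 4 arrays, SAHA left and control right, with replicate numbers, group means as lines and the 25th percentile of the arrays (3.94 to 4.04) as a grey band. Tspyl4 stands apart by 1.88 or more, Nap1l3 lies below the grey band in both groups, and Tspyl5 lies just above it.

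Over the family 2 of 10 members rose and none fell (limma over all genes, adjusted p under 0.05), and 4 had an unadjusted p under 0.05, against 18.1% of all genes. By the adjusted p 2.23% of all genes passed in either direction, 1.52% higher and 0.709% lower. That background comes from 405 genes, and it shrank to 31 when SAHA replicate 1 was left out and to 90 when SAHA replicate 2 was. The 2 members became 0 when SAHA replicate 1 was left out and 1 (Tspyl4) when SAHA replicate 2 or control replicate 2 was. In the fit over all probe sets 1 of the 21 member probe sets passed, that of Tspyl4 (adjusted p = 0.0301), against 0.537% of all probe sets in either direction and 0.406% higher. The members were picked with results known, so their share against the background is not evidence about the family. For 4 members both SAHA arrays lay above both control arrays and for 3 they lay below, against 21.1% and 29.6% of all genes. The median log2 change was 0.68 over the 5 TSPYL genes, -0.10 over the 4 NAP1L genes and -0.05 over all genes. For a single gene, exact permutation of 2 against 2 arrays has a smallest two-sided p of 0.333.

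The members differed among themselves in how far they moved. The smallest distance between a SAHA and a control array was 1.88 for Tspyl4, and the largest such distance was 0.98 for Tspyl1, 0.81 for Tspyl2, 0.75 for Tspyl3 and 1.17 for Nap1l2. Levels of different probe sets cannot be set side by side. Sizes of change can be compared only roughly, since probe sets of the same gene differed, with 0.68 and 0.47 for Tspyl3.

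**Figure D3:**
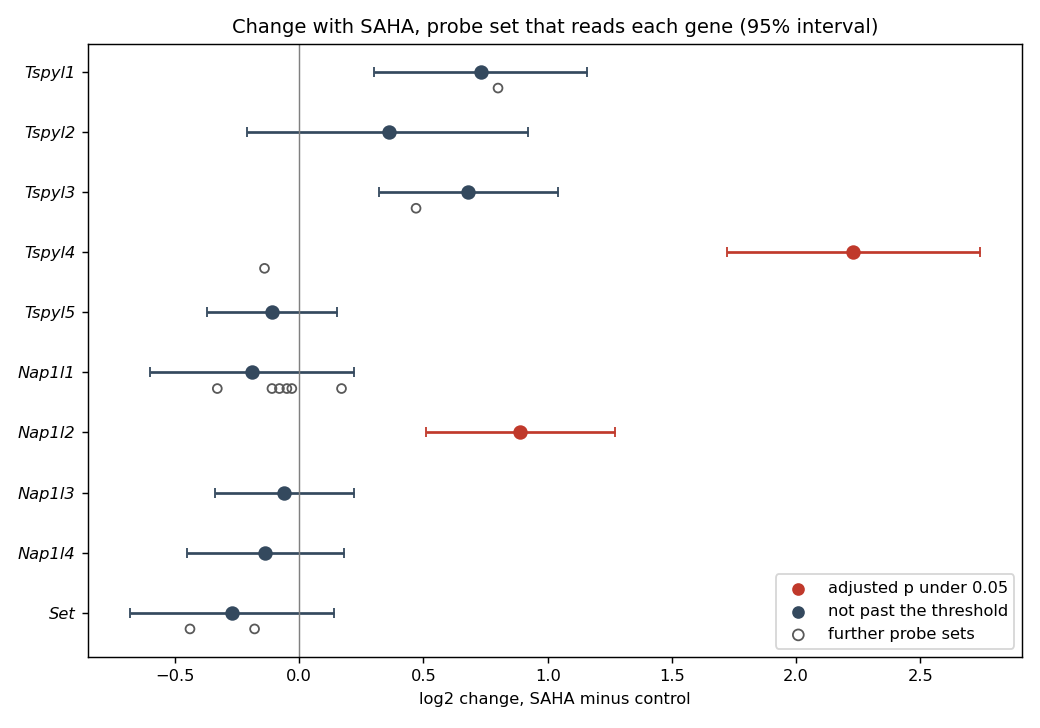
Log2 change (horizontal axis, SAHA minus control) of each member with its 95% interval from limma; red marks an adjusted p under 0.05 and open circles are further probe sets of the same gene. Tspyl4 lies at 2.23 and Nap1l2 at 0.89, and the intervals of Nap1l1, Nap1l3, Nap1l4, Set, Tspyl2 and Tspyl5 include 0.

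**Figure D4:**
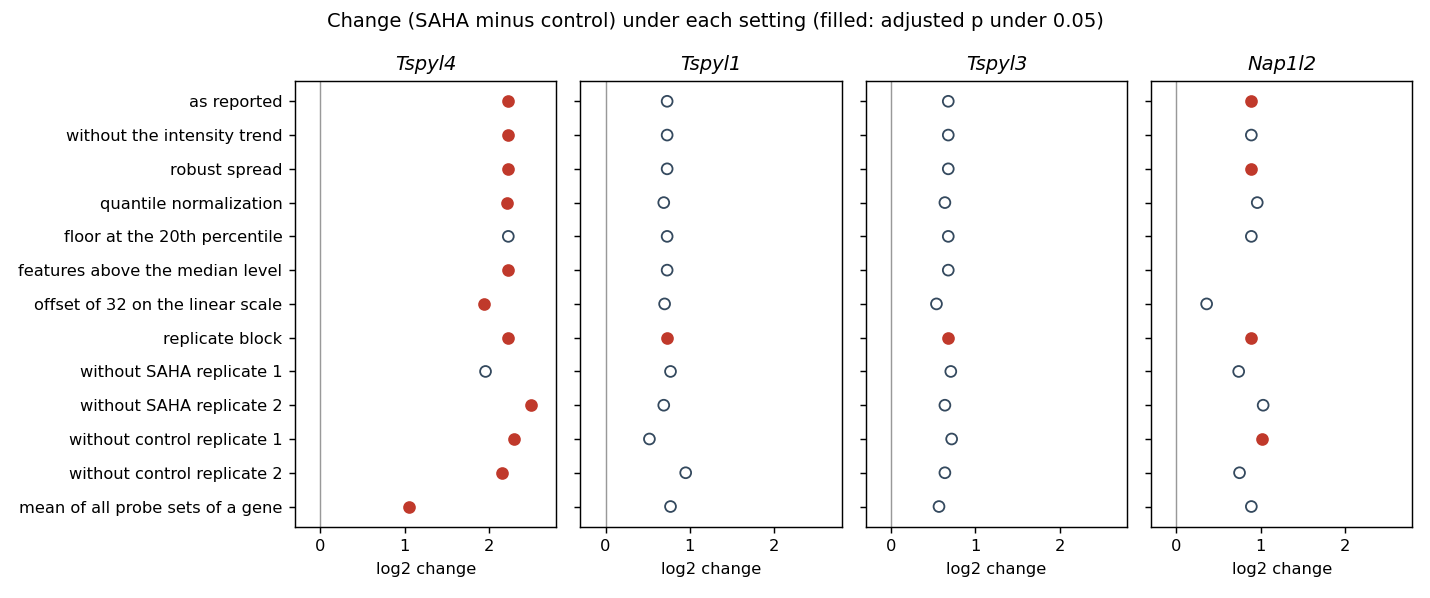
Log2 change (horizontal axis, SAHA minus control) of Tspyl4, Tspyl1, Tspyl3 and Nap1l2 under each setting named at the left; filled circles have an adjusted p under 0.05, and a setting that leaves a gene out has no circle. Tspyl4 passed in 10 of 12 alternatives and Nap1l2 in 3 of 11. The change stayed above 0 for all 4 genes, which is no measure of stability. Their groups did not overlap, so leaving out an array could not turn the direction. The trend, spread, filter and replicate block settings leave the change itself as it is.

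The genes whose profile over the 4 arrays was most like that of Tspyl4 were found by the Euclidean distance between log2 values centred on each gene's mean, among 18193 genes. They were Egln3, a prolyl hydroxylase that acts on hypoxia-inducible factors, at a distance of 0.10 log2 units, Cnn3, a calponin, at 0.151, and Morn2, a MORN-repeat protein, at 0.273. Egln3 had log2 values of 8.92 and 8.29 with SAHA and 6.54 and 6.37 in control, with SAHA replicate 1 the highest array, as for Tspyl4. Only 4 arrays enter this measure, and it orders genes by size of change as much as by shape.

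Outside the family 26 of 31 listed histone chaperones were measured. Of these 1 rose and none fell (limma, adjusted p under 0.05), against 1.52% and 0.709% of all genes. Their changes ran from -0.74 to 0.80 with a median of -0.04, against -0.05 over all genes. The gene that rose was Asf1a, which hands H3-H4 to the assembly factors CAF-1 and HIRA. Asf1a had log2 values of 9.99 and 9.95 in SAHA-treated cells, against 9.15 and 9.18 in control cells. Its groups did not overlap, and the change was 0.80 ± 0.13 (SE, limma, adjusted p = 0.0407), or 1.74-fold. The call was lost when any 1 of the 4 arrays was left out (limma, adjusted p from 0.0708 to 0.267), with quantile normalization (0.0531), with the 20th percentile floor (0.158) and when its probe sets were averaged, at a log2 change of 0.50 (adjusted p = 0.115).

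Among 10 measured genes of the SET complex and of PP2A none passed (limma over all genes, 2 with an unadjusted p under 0.05, near the 18.1% of all genes), and the median log2 change was -0.20. The largest changes were those of Hmgb2, a DNA-bending protein found with SET, at -0.44 (adjusted p = 0.191), and Anp32b, an acidic chaperone of the same complex family, at -0.36 (adjusted p = 0.237). None of 8 importins that carry histones into the nucleus passed (limma, 0 with an unadjusted p under 0.05), with a median of -0.04. Ipo5 had a change of -0.36 and Ipo8 of 0.29. The TSPYL partners Usp7 and Cask had changes of 0.23 and -0.07, and neither passed.

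**Figure D5:**
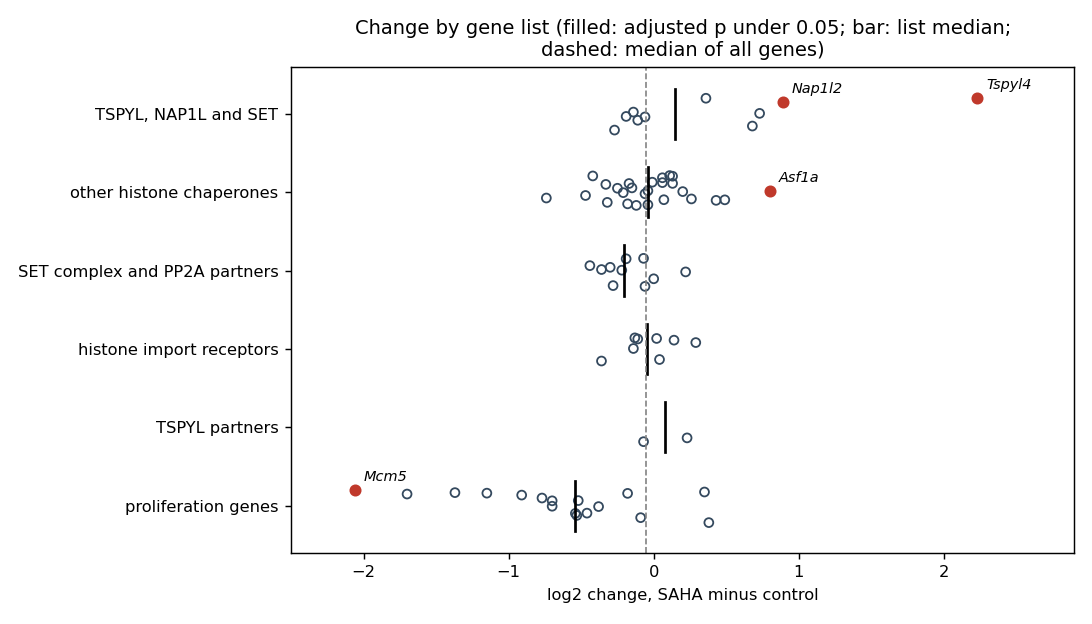
Log2 change (horizontal axis, SAHA minus control) of the members and of the measured genes of 5 lists, 1 circle per gene with vertical scatter for legibility; filled circles have an adjusted p under 0.05, bars are list medians and the dashed line is the median of all genes, -0.05. Tspyl4 lies farther to the right than any gene shown, and the proliferation genes have a median of -0.54.

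Other gene groups differed between the same arrays. Of 17 measured proliferation genes 1 fell and none rose (limma over all genes, adjusted p under 0.05), against 0.709% and 1.52% of all genes. Below 0 lay 15 of the 17, against 10692 of all 18194 genes. Of the 17, 8 had an unadjusted p under 0.05 in either direction (limma), against 18.1% of all genes. Among these 8 was Pcna, which lay higher with SAHA (log2 change 0.35, limma, adjusted p = 0.128). The gene that fell was Mcm5, a subunit of the replicative helicase, at 7.46 and 6.83 with SAHA against 9.64 and 8.78 in control (log2 change -2.06 ± 0.33, SE, limma, adjusted p = 0.04). This call was lost without SAHA replicate 1 (log2 change -2.38, limma, adjusted p = 0.0877) and without SAHA replicate 2 (-1.75, 0.108). It was also lost among genes above the median level (0.0542), with the 20th percentile floor (0.227) and with probe sets averaged (log2 change -1.45, 0.0722), where Mcm4 passed in its place. Without control replicate 1 Mcm5 fell and Bub1, a mitotic checkpoint kinase, rose, and without control replicate 2 there were 5 proliferation genes that fell. Of 7 measured neutrophil markers 5 fell (limma, adjusted p under 0.05), by 0.82 to 1.88 on the log2 scale, against 0.709% of all genes lower. The summed linear value of the 7 markers was 1440 in both SAHA arrays, against 2940 to 3100 in control. The count of these markers past the threshold was 0 with the floor and without SAHA replicate 1, 2 without SAHA replicate 2 and 3 without control replicate 2. In these bulk samples fewer cells of a type and less RNA per cell cannot be told apart, and the part of these shifts in the changes of Tspyl4 and Nap1l2 was not tested.

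The labelled cell type was checked by its markers. Of 8 dendritic cell markers 7 lay above the array median in every array, the exception being Cd209a, and none passed the threshold (limma). The log2 changes of the 8 ran from -0.87 for Dpp4 (limma, adjusted p = 0.0909) to 0.09 for H2-Aa. All 6 macrophage markers were also above the array median, and none passed. Their log2 changes ran from -0.92 for Mertk (limma, adjusted p = 0.0509) to -0.04 for Csf1r. The median of the 6 was -0.22, against -0.05 over all genes. Of 16 measured markers of B, T, NK, erythroid, mast, basophil and progenitor cells none passed, 12 lay under the array median in every array and 4 under the 25th percentile. Above the array median were Cd3e in every array, and Pax5, Kit and Cd34 in some. The progenitor marker Cd34 was uneven, at 6.17 in SAHA replicate 1 and 4.15 in SAHA replicate 2, against 4.31 and 3.84 in control.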

How the data were processed

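Per the labels' protocols, 6 µg of Trizol-extracted RNA gave the biotinylated cRNA hybridised to each Affymetrix array. The values the authors deposited are log2, 1 per probe set and array, between 2.59 and 15.0 with array medians of 5.34 to 5.35, and the log2 scale was read from the values. The submitters' processing notes name R 2.7. The summarisation and normalization methods are not given in the sources used here, and the deposited normalization was kept. Arrays have no read depth, and their number limits the precision.

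Of 45101 probe sets 34958 carried 1 gene symbol in the platform annotation, which can be old, 932 carried several and 9211 none. Symbols were updated through Entrez identifiers, and for 34754 of the 34958 probe sets the RefSeq table held the identifier. Groups and replicate numbers came from the sample titles. SAHA was compared with control by limma 3.58.1 in R 4.3.3 (lmFit, eBayes with intensity trend, two-sided) over 18194 genes and, apart, over 45037 probe sets without the 64 control probe sets, with Benjamini-Hochberg adjustment and a threshold of 0.05. The test was checked on simulated data, with noise independent between arrays and drawn from the spread that limma had fitted. That check does not cover linked arrays, and deviations of same-numbered arrays here correlated at 0.567. Levels under the 25th percentile of an array were treated as the bottom of the scale. Named genes were all members, the 2 to 4 largest changes of each list among those past the threshold (otherwise the 2 largest), and the 3 nearest profiles to Tspyl4. Members and lists were chosen with earlier results of these data known. Alternatives changed the trend, spread, normalization, low values, filter, probe sets, replicate term and arrays used.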

Additional observations from a re-analysis of the deposited data

How the results depend on the processing

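The count of 405 genes became 0 (limma, 3034 at an unadjusted p under 0.05) with values under the 20th percentile raised to it, 226 among genes above the median level, and 31 to 529 without each array in turn. The count of 242 probe sets became 0 (limma, 5904 at an unadjusted p under 0.05), 101, and 2 to 14 under the same changes. The 2 members became 1 without the intensity trend, with quantile normalization, among genes above the median level, with 32 added to the linear values and with probe sets averaged per gene. They became 0 (limma, 4 at an unadjusted p under 0.05) with the 20th percentile floor and 0 to 2 without each array in turn. Nap1l2 itself is left out above the median level, and where 1 array is left in a group its spread is taken from the other. Replicate numbers are tied to no shared culture by the labels. Deviations of same-numbered arrays from their group means correlated at 0.567 across 18194 genes. With the replicate number as a block 3616 genes, 5651 probe sets and 4 members passed, the last adding Tspyl1 (adjusted p = 0.00115) and Tspyl3 (0.00362). A probe set of Set at -0.44 passed as well (0.0368). On the lists the block gave 8 other histone chaperones (4 higher, 4 lower), 2 genes of the SET complex and PP2A and 1 importin (all lower), 14 proliferation genes (13 lower, with Pcna higher) and 6 neutrophil markers (all lower). Direction turned where changes were near 0. Without each array in turn Nap1l3 ranged from -0.19 to 0.07. Of the Nap1l1 probe sets 4 ranged from -0.27 to 0.12, -0.12 to 0.45, -0.23 to 0.12 and -0.21 to 0.16, and 1 of Set from -0.45 to 0.09. Cask came to 0.00 with its probe sets averaged. Alternatives for the gene lists and neutrophil markers were added after seeing the data. Of 415 values recomputed for single genes, probe sets and lists 355 kept their direction and side of the threshold or, for a count, stayed within 1.5 times of it, which does not mean the same genes. The cause of these shifts was not tested.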
